A study of Mus musculus with 12 samples.

Results

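WNT signalling was described in whole mouse ovaries through 58 genes of the deposited table, out of 24255 genes listed there. The genes were taken by a rule on their symbols, before any filter on their level, and the choice was made with earlier results of these data known. They comprise 19 WNT ligands, 2 genes of ligand processing (Porcn and Wls), 10 Frizzled receptors, 2 LRP co-receptors, 4 R-spondins, 3 LGR receptors, 2 ubiquitin ligases of the receptors (Znrf3 and Rnf43), 9 secreted antagonists and 7 intracellular effectors. The design set 5 libraries from conditional knockout ovaries (CKO), where Gdf9-Cre removes Mtor in oocytes, against 7 libraries from wild-type ovaries (WT). The mice of both genotypes were C57BL/6, aged 6 months, and were given PMSG (a gonadotropin from pregnant mares that stimulates follicles, 5 IU per mouse) with collection of the ovaries 46 h later. Cells other than oocytes are outside the reach of the Gdf9-driven deletion, and no label used here says whether WT mice carried Cre or a floxed allele. Levels are FPKM (fragments scaled to transcript length and to the mapped fragments of the library), so they can be compared between genes per length.

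WNT ligands are lipid-modified by PORCN and carried out of the cell by WLS, and they bind Frizzled receptors together with LRP5 or LRP6. Binding stops the destruction complex built on AXIN and APC from degrading beta-catenin (Ctnnb1), which then acts with TCF and LEF factors on target genes such as Axin2. The ubiquitin ligases ZNRF3 and RNF43 remove Frizzled receptors from the cell surface, and R-spondins bound to LGR4, LGR5 or LGR6 block these ligases and so raise the response to WNT. In the ovary, Rspo1 and Wnt4 are known for their part in female sex determination, and Rspo2 is known as a product of oocytes in growing follicles.

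All 10 granulosa markers were above 0 in every library, as in ovary. Depth, taken from the steps between low values, spanned a 2.16-fold range over the 12 libraries. A single fragment corresponded to 0.303 to 0.654 FPKM for a transcript of 1 kb, so a level under about 1 FPKM stands for few fragments. Mtor itself was at 4.70 ± 0.702 FPKM (SD, WT, n = 7) and 5.02 ± 0.499 FPKM (SD, CKO, n = 5), exact two-sided permutation p = 0.4053, which does not check a deletion limited to oocytes. Granulosa markers summed to 3600 to 6452 FPKM in WT libraries and to 1290 to 2405 FPKM in CKO libraries, and 10 of 10 were called lower. Oocyte markers (10 genes) summed to 54.1 to 181 FPKM in WT libraries and to 8.83 to 50.2 FPKM in CKO libraries, with 5 of 8 tested called lower. Gdf9 had the highest mean of the 10 in both genotypes (52.5 FPKM in WT, 9.69 FPKM in CKO). Of the tested markers not called, Figla and Nobox had higher means in CKO (1.97 and 3.51 FPKM) than in WT (0.644 and 2.53 FPKM). Oosp1, also not called, had a lower mean in CKO. Of the untested markers, Zp2 had a higher mean in CKO and Zp1 a slightly lower mean. Of 8 stromal markers 4 were called higher, with sums of 725 to 977 FPKM in WT and 1720 to 2176 FPKM in CKO, and of 8 macrophage markers 7 were called higher. All 4 mast cell markers were called higher, with sums of 0.444 to 13.4 FPKM in WT and 53.3 to 257 FPKM in CKO. Among 8 immediate-early genes, known as fast responders to many stimuli, tissue handling included, 6 were called higher, with sums of 309 to 2043 FPKM in WT and 1627 to 6893 FPKM in CKO. In whole organs, fewer cells of a type and less RNA per cell cannot be told apart, and the part of these shifts in the results below was not tested.

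Of the 58 genes, 40 reached 1 FPKM in at least 5 libraries and were tested, of which 4 rose and 4 fell in CKO. A gene was called where limma, fitted to log2(FPKM + 1), gave a Benjamini-Hochberg p under 0.05 over the 13168 genes tested. Among all 13168 genes, 8.7% were called higher and 7.59% lower, so the 10% of WNT genes called in each direction lie near the background. Rspo1, Rspo3, Sfrp1 and Wls rose, and Rspo2, Lgr4, Lgr6 and Lrp5 fell. The median log2 difference of the 40 was -0.01, as over all genes tested. Complete separation of the genotypes was seen in 3 of the 40, or 7.5%, against 7.73% of all genes. Rspo1 was higher without overlap, as were 4.09% of all genes, and Rspo2 and Lgr4 were lower without overlap, as were 3.65%.

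Upstream sequence is shown for Rspo1 and Lgr4, the ligand that rose and the receptor that fell without overlap of the genotypes and with an entry in the RefSeq promoter table. Each run covers the 250 bases before the RefSeq start site (GRCm38.p6), 5′ to 3′ on the gene's strand, which is the plus strand for both: chr4:124986180-124986429 for Rspo1 and chr2:109917397-109917646 for Lgr4. Capitals mark the CCAAT box, a promoter element, read on either strand.
Rspo1: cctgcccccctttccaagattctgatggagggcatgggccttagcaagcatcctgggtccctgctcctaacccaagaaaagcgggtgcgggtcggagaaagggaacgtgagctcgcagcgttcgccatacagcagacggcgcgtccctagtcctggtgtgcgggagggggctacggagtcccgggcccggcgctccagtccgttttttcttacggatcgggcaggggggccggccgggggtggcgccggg
Lgr4: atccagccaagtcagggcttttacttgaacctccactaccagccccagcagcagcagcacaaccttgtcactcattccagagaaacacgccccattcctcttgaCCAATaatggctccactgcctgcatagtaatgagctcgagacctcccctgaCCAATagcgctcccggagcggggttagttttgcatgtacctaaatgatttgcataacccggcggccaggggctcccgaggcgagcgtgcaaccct
The TCF/LEF cores CTTTGA and CTTTGT, searched on both strands, were found in neither run, nor in the windows of Lgr6 and Wls, the other genes called that have an entry. Either core was present in 27.6% of all 32851 promoter windows and in 20.8% of the 48 windows of 38 WNT genes in the table. Lgr4 held 2 CCAAT boxes, an element present in 33.8% of all windows and searched after the sequences were seen. The window of Rspo1 was richer in G and C (66.8%, with 22 CpG dinucleotides) than that of Lgr4 (55.6%, with 10). Absence of these letters from the windows says nothing about binding elsewhere.

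The R-spondins moved in opposite directions. Rspo1 (chromosome 4, 124986430 to 125009099, plus strand, mm10) ranged in WT from 3.07 to 5.68 FPKM with a median of 5.22 FPKM. Its CKO values, in the order of replicates 1 to 5, were 15.9, 7.83, 11.2, 12.96 and 9.57 FPKM. Every CKO library lay above every WT library, and the mean was 2.49-fold higher (4.62 ± 1.13 FPKM, SD, n = 7, against 11.5 ± 3.12 FPKM, SD, n = 5; log2 difference 1.14, SE 0.18, adjusted p = 0.00116, limma). Rspo3 (chromosome 10, 29452416 to 29535867, minus strand), which encodes an R-spondin known from blood vessels and mesenchyme, ranged in WT from 0.543 to 3.43 FPKM with a median of 1.46 FPKM. The 5 CKO libraries, in order, were at 7.34, 5.28, 3.22, 6.13 and 4.95 FPKM. The genotypes overlapped only through the unnumbered WT library at 3.43 FPKM and CKO replicate 3 at 3.22 FPKM, and the log2 difference was 1.34 with an SE of 0.26 (adjusted p = 0.0034, limma). An exon of Rspo3 overlaps a gene on the other strand, an overlap that 11 of the 58 genes have. Their reads cannot be told apart where strand was not used in counting, which the sources do not state.

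Rspo2 fell. This gene (chromosome 15, 43020794 to 43170826, minus strand) ranged in WT from 1.36 to 6.46 FPKM with a median of 2.38 FPKM. In CKO replicates 1 to 4 it was at 1.21, 0.474, 0.479 and 1.28 FPKM, and in CKO replicate 5 it was listed at 0. All 5 CKO libraries lay below the lowest WT library, although the gap was small, between 1.28 and 1.36 FPKM, and these levels rest on few fragments. The log2 difference was -1.29 with an SE of 0.32 (adjusted p = 0.0135, limma). Over all alternatives the adjusted p ranged from 0.00904 to 0.0704. It passed in each of the 12 fits with a single library left out, and missed the threshold with the CKO pair 1 and 5 removed and with the pair 2 and 3 removed. Rspo4 was above 0 in 2 of 7 WT and 0 of 5 CKO libraries, at no more than 0.315 FPKM.

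As a description of levels, the R-spondins stood in a clear order in CKO alone. In WT the ranges of Rspo1 and Rspo2 overlapped, and so did those of Rspo2 and Rspo3. In CKO all values of Rspo1 (7.83 FPKM or more) lay above those of Rspo3 (3.22 to 7.34 FPKM), and all values of Rspo3 lay above those of Rspo2 (1.28 FPKM or less). The summed level of the 4 R-spondins was 5.89 to 15.2 FPKM in WT and 13.6 to 24.5 FPKM in CKO.

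**Figure D1:**
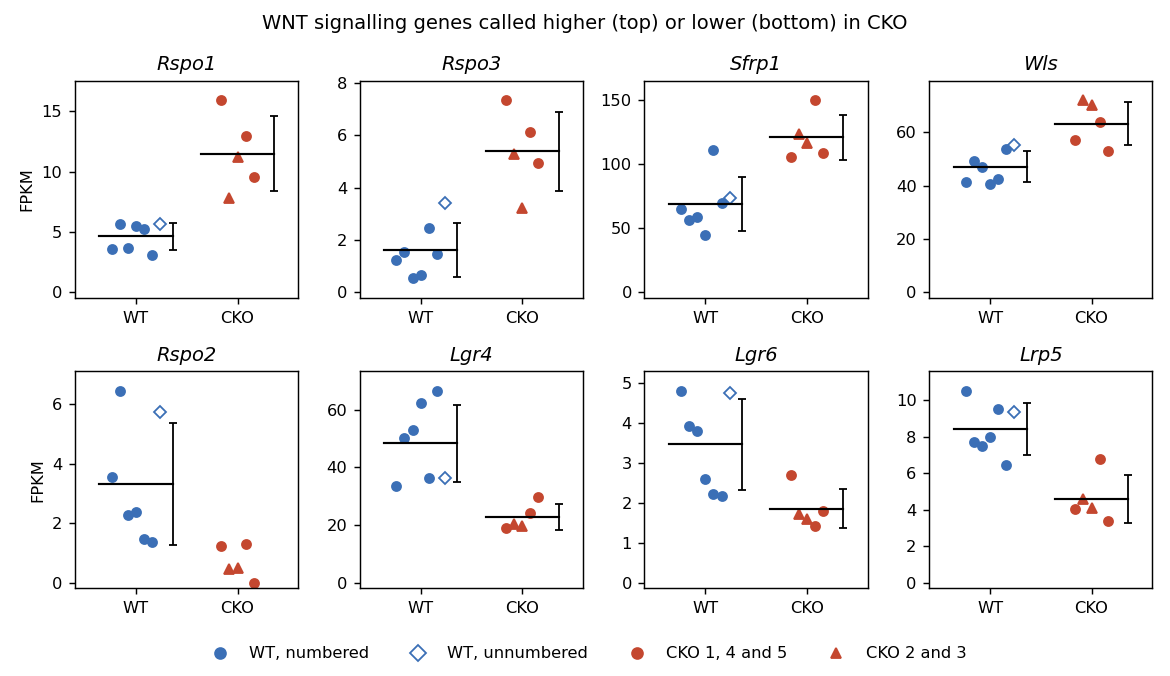
FPKM of the 8 WNT genes called between the genotypes, 1 panel per gene, with WT libraries in blue and CKO libraries in red. Points are libraries, lines are means and bars are 1 SD (left out for Rspo2 in CKO, where 1 library is listed at 0). Rspo1, Rspo2 and Lgr4 show no overlap between the genotypes, and the other 5 genes do.

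Of the receptors of R-spondins, Lgr4 and Lgr6 fell. Lgr4 (chromosome 2, 109917647 to 110014257, plus strand), the most abundant of the 3, ranged in WT from 33.6 to 66.6 FPKM with a median of 50.1 FPKM. CKO libraries, in order, were at 19.0, 20.5, 19.5, 24.2 and 29.8 FPKM. The genotypes did not overlap, the mean was 2.14-fold lower in CKO (48.3 ± 13.3 FPKM, SD, n = 7, against 22.6 ± 4.51 FPKM, SD, n = 5), and the log2 difference was -1.04 with an SE of 0.18 (adjusted p = 0.00188, limma). Lgr6 (chromosome 1, 134983301 to 135105276, minus strand) ranged in WT from 2.17 to 4.81 FPKM with a median of 3.80 FPKM. Its CKO libraries, in order, were at 2.70, 1.73, 1.603, 1.43 and 1.78 FPKM. Its genotypes overlapped through CKO replicate 1, and the call (log2 difference -0.62, SE 0.20, adjusted p = 0.0427, limma) was lost when any of WT replicates 1, 2 and 3, the unnumbered WT library or CKO replicates 2 to 5 was left out. Its adjusted p ranged from 0.0272 to 0.152 over all alternatives. Lgr5, a marker of WNT-responsive stem cells in several epithelia, did not pass, at 8.30 ± 3.43 FPKM (SD, WT, n = 7) and 7.95 ± 5.03 FPKM (SD, CKO, n = 5). The summed level of the 3 receptors, set mainly by Lgr4, was 41.9 to 80.04 FPKM in WT and 26.0 to 36.04 FPKM in CKO.

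Neither ligase that R-spondins block passed by limma or by the exact Wilcoxon test, and 1 of 2 had an unadjusted p under 0.05. Znrf3 had a mean of 10.0 ± 1.53 FPKM over WT libraries (SD, n = 7) and 7.08 ± 2.01 FPKM (SD, CKO, n = 5), with a log2 difference of -0.48, an SE of 0.16 and an adjusted p of 0.0593 (limma) that ranged from 0.0176 to 0.384 over the alternatives. It passed without CKO replicate 2. Rnf43 was at 2.05 ± 0.748 FPKM and 1.41 ± 0.536 FPKM (adjusted p = 0.31, limma).

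Of the co-receptors, Lrp5 fell and Lrp6 did not pass. Lrp5 (chromosome 19, 3584828 to 3686564, minus strand) ranged in WT from 6.45 to 10.5 FPKM with a median of 7.96 FPKM. CKO libraries, in order, were at 4.03, 4.60, 4.10, 6.79 and 3.39 FPKM. Only CKO replicate 4 reached into the WT range, where WT replicate 7 was the lowest, and the log2 difference was -0.77 with an SE of 0.16 (adjusted p = 0.00447, limma; 0.00199 to 0.0724 over the alternatives). Lrp6, the more abundant, was at 19.2 ± 1.37 FPKM (SD, WT, n = 7) and 19.5 ± 4.04 FPKM (SD, CKO, n = 5), with a log2 difference of 0.00 and an SE of 0.12.

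None of the 8 Frizzled receptors tested passed by limma or by the exact Wilcoxon test, and 2, Fzd3 and Fzd4, had an unadjusted p under 0.05 in limma. Fzd1 had the highest mean, at 31.8 ± 19.9 FPKM (SD, WT, n = 7) and 37.3 ± 8.34 FPKM (SD, CKO, n = 5). Its WT median, 21.7 FPKM, lay below that of Fzd4, 26.8 FPKM. The unnumbered WT library alone was at 75.4 FPKM for Fzd1, while the other 6 WT libraries were at 20.9 to 35.1 FPKM. With that library left out Fzd1 passed, with a log2 difference of 0.59 in place of 0.36. Over all alternatives its adjusted p ranged from 0.0236 to 0.699. Fzd4, a receptor with a known part in vessels and in the corpus luteum, was at 24.2 ± 6.14 FPKM (SD, WT, n = 7) and 15.2 ± 3.79 FPKM (SD, CKO, n = 5). It missed the threshold narrowly (log2 difference -0.63, SE 0.21, adjusted p = 0.0509, limma; 0.00468 to 0.299 over the alternatives), and it passed under both other scalings, without the unnumbered WT library, where it was at 12.5 FPKM, and without CKO replicate 2 or 3. Fzd3, known from planar polarity, was at 6.46 ± 1.602 FPKM and 4.24 ± 1.16 FPKM (log2 difference -0.51, SE 0.17, adjusted p = 0.0608, limma), and it passed without WT replicate 3 or CKO replicate 2. Fzd2, Fzd5, Fzd6, Fzd7 and Fzd8 had WT means between 4.98 and 16.7 FPKM and CKO means between 4.62 and 15.4 FPKM, with adjusted p between 0.174 and 0.961. Fzd9 and Fzd10 were too low to be tested, at no more than 1.74 and 1.59 FPKM.

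**Figure D2:**
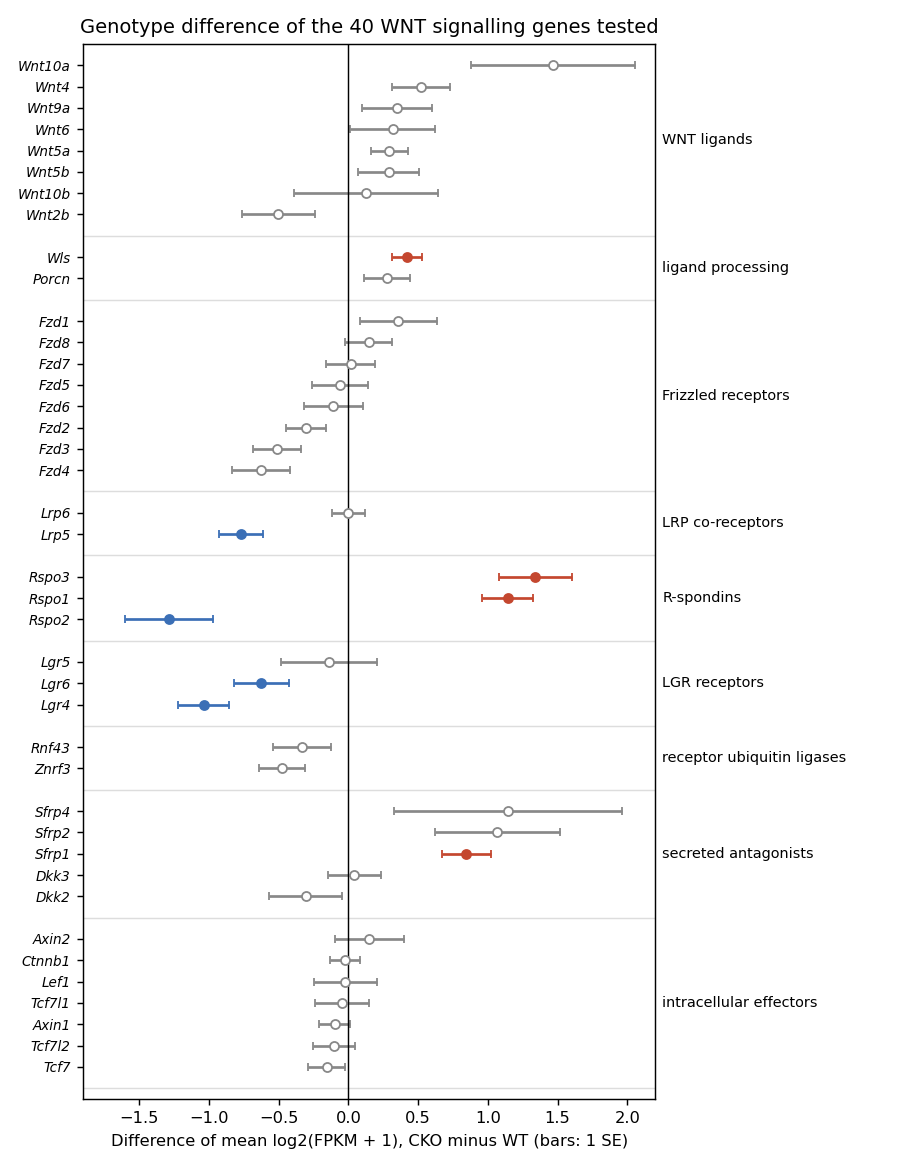
Difference of mean log2(FPKM + 1) between CKO and WT for the 40 WNT genes tested, ordered within each functional group, with bars of 1 SE. Filled red and blue points are genes called higher and lower, and open grey points did not pass. R-spondins carry the largest called differences in both directions, and the 7 intracellular effectors lie within 0.16 of 0.

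WNT ligands were present at widely different levels, and none of the 8 tested passed by limma or by the exact Wilcoxon test. An unadjusted p under 0.05 was seen in limma for 3, Wnt4, Wnt5a and Wnt10a. Wnt4 (chromosome 4), a ligand of female gonad development and of follicular cells, was the most abundant. It ranged in WT from 99.5 to 256 FPKM with a median of 165 FPKM, and in CKO replicates 1 to 5 it was at 178, 297, 218, 273 and 253 FPKM. The groups overlapped, with WT replicate 3 highest in WT, and the log2 difference was 0.52 with an SE of 0.21 (adjusted p = 0.108, limma). Without WT replicate 3 it passed, and the adjusted p ranged from 0.048 to 0.375 over the alternatives.

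Wnt5a, a ligand of non-canonical signalling, lay in WT within 39.6 to 45.5 FPKM with a median of 44.7 FPKM. The CKO libraries, in order, were at 35.6, 67.6, 60.4, 61.0 and 48.3 FPKM. Of the CKO libraries 4 lay above all WT libraries and CKO replicate 1 lay below them. The log2 difference was 0.29 with an SE of 0.13 (adjusted p = 0.157, limma). Without CKO replicate 1 it was 0.43 and passed (0.00545 to 0.62 over all alternatives).

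Wnt10b ranged in WT from 17.5 to 94.8 FPKM with a median of 50.9 FPKM, and in CKO replicates 1 to 5 it was at 13.2, 109.8, 105.5, 43.2 and 37.8 FPKM. Wnt6 ranged in WT from 24.5 to 81.0 FPKM with a median of 35.7 FPKM, and in CKO it was at 30.5, 58.1, 84.9, 37.4 and 33.5 FPKM. The spread within each genotype exceeded the difference between them for both (adjusted p = 0.901 and 0.527, limma). Wnt10a was at 1.22 to 13.5 FPKM in WT, with a median of 2.03 FPKM, and at 4.67, 31.4, 30.0, 5.89 and 4.85 FPKM in CKO replicates 1 to 5. It did not pass (log2 difference 1.47, SE 0.59, adjusted p = 0.107, limma), except without the unnumbered WT library, which was at 13.5 FPKM, or in the fit of 4 numbered pairs, with 0.0146 to 0.587 over all alternatives.

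The other tested ligands had means below 10 FPKM. Wnt2b was at 9.004 ± 3.59 FPKM (SD, WT, n = 7) and 6.09 ± 2.77 FPKM (SD, CKO, n = 5), Wnt5b at 5.54 ± 2.19 FPKM and 6.69 ± 1.09 FPKM, and Wnt9a at 3.44 ± 1.28 FPKM and 4.73 ± 1.91 FPKM (adjusted p = 0.213, 0.407 and 0.38, limma). Wnt4 was the highest ligand in each of the 12 libraries, and the ranges of Wnt10b, Wnt5a and Wnt6 overlapped each other. Of the 11 ligands below the filter, Wnt11, Wnt2 and Wnt7b reached 1 FPKM in 2 or 3 libraries, and Wnt3a was listed at 0 in all 12. Wnt1, Wnt3, Wnt7a, Wnt8a, Wnt8b, Wnt9b and Wnt16 stayed below 1 FPKM in every library.

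Some ligand genes lie beside each other on a chromosome, in pairs with unlike and with like levels. Wnt10b and Wnt1 are 11.7 kb apart on chromosome 15, and Wnt1 was at no more than 0.345 FPKM. Wnt6 and Wnt10a are 6.2 kb apart on chromosome 1, and both were high in CKO replicates 2 and 3 and in the unnumbered WT library. Wnt3a and Wnt9a are 16.2 kb apart on chromosome 11, where Wnt9a was at 1.83 FPKM or more in every library. Wnt9b and Wnt3, 24.3 kb apart, were both near 0.

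Among the genes of ligand processing, Wls (chromosome 3, 159839672 to 159938664, plus strand), the carrier that takes WNT proteins to the cell surface, rose. It ranged in WT from 40.7 to 55.1 FPKM with a median of 46.8 FPKM, and in CKO replicates 1 to 5 it was at 57.1, 71.99, 70.2, 64.0 and 53.0 FPKM. The log2 difference was 0.42 with an SE of 0.11 (adjusted p = 0.0181, limma). Only CKO replicate 5 lay within the WT range, and the call was lost without CKO replicate 3 (0.0108 to 0.129 over all alternatives). Porcn, which acylates WNT proteins, was at 3.10 ± 0.733 FPKM (SD, WT, n = 7) and 3.95 ± 0.867 FPKM (SD, CKO, n = 5), with an adjusted p of 0.288.

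Secreted antagonists were led by Sfrp4, which exceeded every other WNT gene in 11 of the 12 libraries. Sfrp1 (chromosome 8, 23411502 to 23449632, plus strand), a decoy that binds WNT ligands, rose. It ranged in WT from 44.7 to 111 FPKM with a median of 65.1 FPKM, and in CKO replicates 1 to 5 it was at 105, 123, 116.5, 149 and 108 FPKM. WT replicate 6, at 111 FPKM, was the WT library that reached the CKO range. The mean was 1.76-fold higher in CKO (log2 difference 0.85, SE 0.18, adjusted p = 0.00529, limma; 0.000672 to 0.0682 over the alternatives). Sfrp4 ranged in WT from 71.35 FPKM, in the unnumbered library, to 5095 FPKM with a median of 2268 FPKM, and in CKO it was at 1784, 4223, 7013, 2770 and 2964 FPKM (log2 difference 1.15, SE 0.82, adjusted p = 0.379, limma). Sfrp2 was at 0.43 to 4.65 FPKM in the 6 numbered WT libraries, 12.02 FPKM in the unnumbered one and 2.90 to 9.28 FPKM in CKO. It did not pass (log2 difference 1.07, SE 0.45, adjusted p = 0.125, limma) and passed with the unnumbered WT library left out, also in both fits limited to 8 numbered libraries (0.0118 to 0.254 over all alternatives).

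Sfrp5 was not tested. It was at no more than 0.532 FPKM in WT and at 4.19, 0.886, 0.299, 0.265 and 6.98 FPKM in CKO replicates 1 to 5, high only in replicates 1 and 5, which also had the highest summed macrophage markers (3515 and 3873 FPKM, against 1222 to 1637 FPKM in the other CKO libraries) and red blood cell markers (276.5 and 316 FPKM, against 12.96 to 63.6 FPKM). Summed smooth muscle markers were also highest in CKO replicates 1 and 5 (814.6 and 663 FPKM), with 609.5 FPKM in CKO replicate 4. WT replicate 1 had a red blood cell sum of 248.4 FPKM with Sfrp5 at 0.532 FPKM. The part of these cells in the Sfrp5 values was not tested. Dkk3, a Dickkopf relative, was at 33.2 ± 10.9 FPKM (SD, WT, n = 7) and 33.7 ± 7.17 FPKM (SD, CKO, n = 5), and Dkk2 was at 1.86 ± 0.798 FPKM and 1.36 ± 0.954 FPKM. Neither passed. Dkk1, Dkk4 and Wif1 were below 0.5 FPKM throughout.

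None of the 7 intracellular effectors passed by limma or by the exact Wilcoxon test, and 0 had an unadjusted p under 0.05. Ctnnb1, which encodes beta-catenin, ranged in WT from 273 to 353 FPKM with a median of 297 FPKM, and in CKO replicates 1 to 5 it was at 267, 287, 289.5, 358 and 305 FPKM. Axin2, a widely used readout of canonical WNT signalling, was at 7.69 ± 3.94 FPKM (SD, WT, n = 7) and 8.32 ± 2.60 FPKM (SD, CKO, n = 5), with a log2 difference of 0.15 and an SE of 0.25 (adjusted p = 0.737, limma). It reached 16.3 FPKM in the unnumbered WT library, against 4.79 to 8.01 FPKM in the other 6, and without that library the log2 difference was 0.33 and did not pass. Axin1 was at 24.0 ± 3.05 FPKM and 22.3 ± 2.29 FPKM, and Tcf7, the most abundant TCF gene, at 28.5 ± 4.82 FPKM and 25.5 ± 4.197 FPKM. Tcf7l1 was at 12.3 ± 2.80 FPKM and 12.1 ± 3.49 FPKM, Tcf7l2 at 10.3 ± 1.85 FPKM and 9.52 ± 1.95 FPKM, and Lef1 at 1.25 ± 0.682 FPKM and 1.14 ± 0.299 FPKM. RNA levels do not report the amount or location of beta-catenin protein.

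Levels in WT libraries were also set beside the summed markers of 13 lists, where Sfrp4 passed with luteal markers by Pearson's r and no relation of Rspo2 passed after adjustment. In WT, Rspo2 was highest in replicate 2 and the unnumbered library, at 6.46 and 5.74 FPKM, where the summed oocyte markers were at 141 and 181 FPKM. It was lowest in replicates 6 and 7, at 1.47 and 1.36 FPKM, where they were at 64.1 and 54.1 FPKM. Across the 7 WT libraries, on the log2 scale, Pearson's r was 0.969 (exact permutation p = 0.000992, adjusted p = 0.0903) and Spearman's rho was 0.964 (exact permutation p = 0.00278, adjusted p = 0.253), and r was 0.982 without the 2 libraries farthest from the median. Rspo2 also had r = 0.849 with surface epithelium markers and r = -0.775 with theca markers, with adjusted p = 0.335 and 0.436 (exact permutation). In CKO, replicates 1 and 4 had both the higher Rspo2 values, of 1.21 and 1.28 FPKM, and the higher oocyte sums, of 50.2 and 46.4 FPKM, against sums of 8.83 to 20.5 FPKM in the others.

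Sfrp4, known from luteal and late follicular cells, had the same order in WT as the sum of 5 luteal markers. Pearson's r was 0.994 (exact permutation p = 0.000198, adjusted p = 0.0361), and single markers were not set beside it. Spearman's rho was 1.0 (exact permutation p = 0.000397, the smallest that the ranks of 7 libraries can give, adjusted p = 0.0722). Without the 2 libraries farthest from the median r was 0.947. Sfrp4 also had r = 0.926 with theca markers and r = 0.891 with endothelium markers, with adjusted p = 0.318 and 0.348 (exact permutation), and these r were 0.375 and -0.07 without the 2 libraries farthest from the median. The unnumbered WT library had the lowest luteal sum, 108 FPKM, against 619 to 1799 FPKM in the other WT libraries. The ratio of Sfrp4 to the luteal sum was 0.663 to 2.86 in WT and 5.38 to 13.3 in CKO, a difference noticed in the values and not tested. Sfrp4 itself was not called. All 5 genes of the luteal sum had a lower mean FPKM in CKO, and Parm1 alone was called lower. Hsd17b7, with the highest WT mean of the 5, was at 577.5 FPKM in WT and 144.8 FPKM in CKO, not called. For Ptgfr the means were 192.1 and 163.8 FPKM, for Prlr 173.3 and 157.3 FPKM, and for Akr1c18 22.9 and 8.68 FPKM. On the log2 scale Ptgfr and Akr1c18 were higher in CKO, by 0.12 and 0.41, and neither was called. The relations of Rspo2 with oocyte markers and of Sfrp4 with luteal markers were 2 of 182 computed, between 14 WNT genes and 13 marker lists. Both were singled out after their values were seen. Of the 182, 1 passed after adjustment by Pearson's r and 0 by Spearman's rho, with 14 at an unadjusted p under 0.05 in the exact permutation test of rho.

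**Figure D3:**
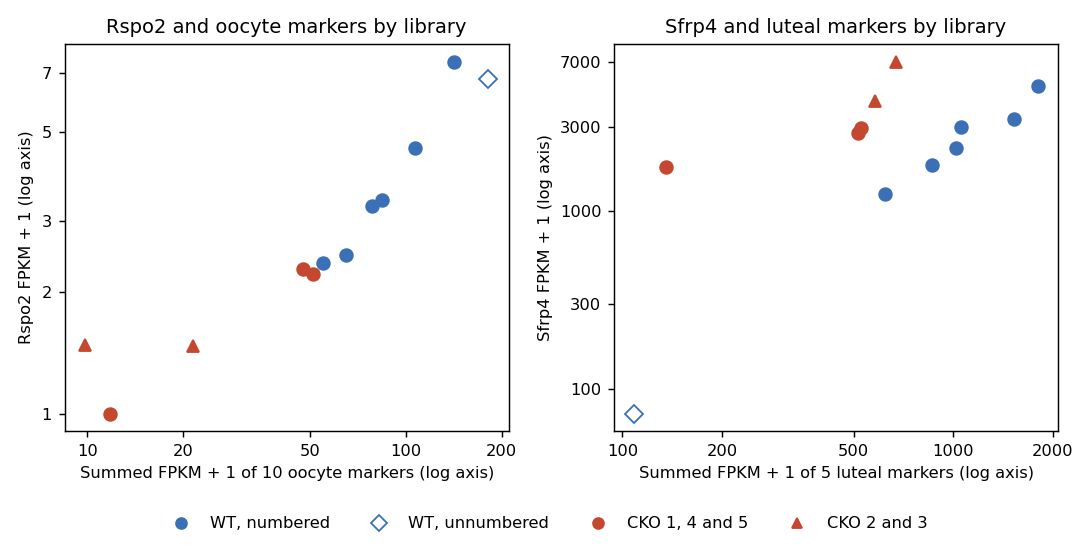
Level of Rspo2 against the summed level of 10 oocyte markers (left) and of Sfrp4 against 5 luteal markers (right), each as FPKM + 1 on log axes, with 1 point per library. CKO libraries have the lowest Rspo2 values and the lowest oocyte sums, and the unnumbered WT library is lowest for Sfrp4 and for the luteal sum.

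Libraries within a genotype differed in several WNT genes together. The unnumbered WT library was the highest WT library for 19 of the 40 genes tested, against 2 to 5 genes for each of the other WT libraries. The same count over all genes tested is not given here, so whether this is particular to WNT genes cannot be said. It had the lowest luteal sum and the lowest theca sum of the WT libraries (7872 FPKM against 12610 to 19960 FPKM). Without it, 7 WNT genes were called higher and 4 lower, with Fzd1, Sfrp2 and Wnt10a added to the rises, and Fzd4 taking the place of Lgr6 among the falls.

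CKO replicates 2 and 3 were the 2 highest CKO libraries for 10 of the 40 genes, or 25%, against 15% of all genes tested. These were Wnt6, Wnt10a, Wnt10b, Lgr5, Fzd4, Fzd6, Znrf3, Axin2, Sfrp4 and Wls. Axin2 was at 10.8 and 11.4 FPKM there and at 5.89 to 7.25 FPKM in the other CKO libraries, and Lgr5 was at 13.9 and 13.02 FPKM against 3.95 to 4.64 FPKM. In the same 2 libraries the summed level of 6 oviduct markers was 260 and 84.5 FPKM, against 2.07 to 2.31 FPKM in the other CKO libraries and 0 to 2.22 FPKM in WT. The sum was carried by Ovgp1, an oviduct glycoprotein, at up to 252 FPKM in CKO and 1.46 FPKM in WT. The ciliary marker Foxj1 reached 4.72 FPKM in CKO and 0.6 FPKM in WT, and Pax8 reached 2.36 and 0.144 FPKM. Tekt1 and Ccdc39 were at no more than 0.313 and 0.153 FPKM in CKO, below their WT maxima of 0.594 and 0.16 FPKM. Dynlrb2 was at 0 throughout. The part of oviduct tissue in these WNT values was not tested. Without CKO replicates 2 and 3, Wls, Rspo2 and Lgr6 missed the threshold, and Fzd4 and Znrf3 were called lower. The log2 difference of Wnt10b changed from 0.13 to -0.64 and that of Axin2 from 0.15 to -0.13, with neither called.

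**Figure D4:**
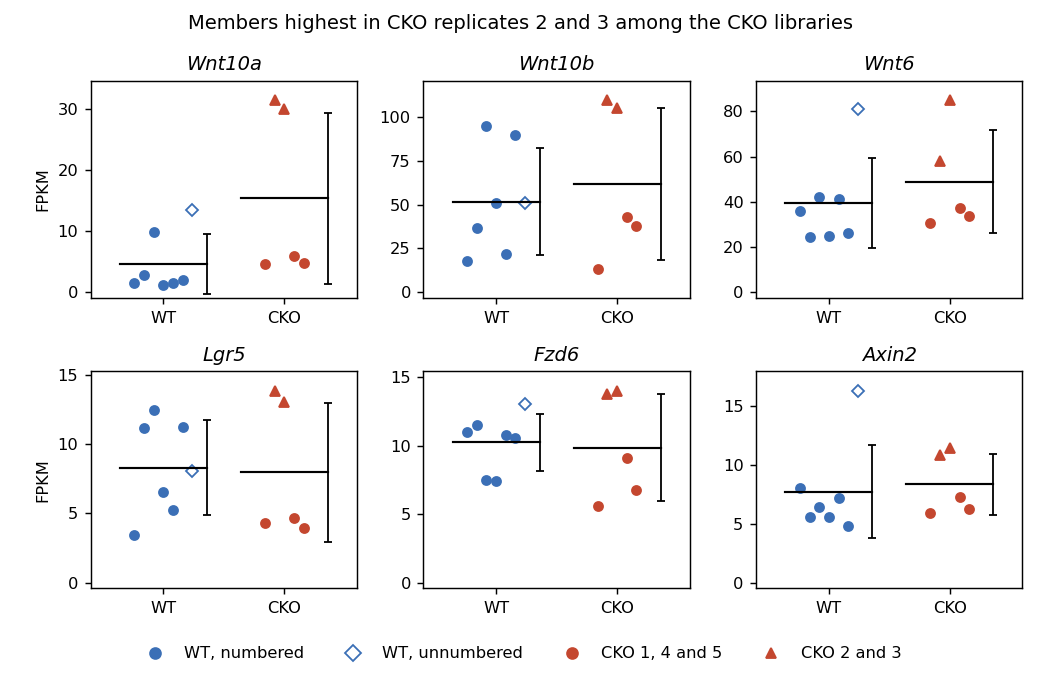
FPKM by library of 6 of the 10 WNT genes that were highest in CKO replicates 2 and 3 among the CKO libraries, with means and bars of 1 SD. CKO replicates 2 and 3 (triangles) stand above CKO replicates 1, 4 and 5 in each panel, and WT libraries span much of the same range for Wnt10b, Lgr5 and Fzd6.

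In 5 further lists of the pathway, 64 genes were tested, of which 4 rose (6.25%) and 6 fell (9.38%), against 8.7% and 7.59% of all genes tested, so these lists too lie near the background. Of 14 genes of the destruction complex and Dishevelled, 13 were tested, 0 rose and 2 fell. Tnks, a tankyrase that marks AXIN for degradation, was at 13.2 ± 3.43 FPKM (SD, WT, n = 7) and 6.25 ± 1.39 FPKM (SD, CKO, n = 5), and Gsk3b, a kinase that phosphorylates beta-catenin, at 26.6 ± 2.56 FPKM and 18.9 ± 3.87 FPKM (adjusted p = 0.00401 and 0.0153, limma). Gsk3b missed the threshold without CKO replicates 1 and 5, and over the alternatives the adjusted p of Tnks reached 0.0546. Of 11 nuclear cofactors tested, 0 passed in either direction by limma, and 0 had an unadjusted p under 0.05 or passed by the exact Wilcoxon test. The median log2 differences of these lists were -0.18 and -0.01, against -0.01 over all genes tested.

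Of 15 other secreted and surface regulators, 9 were tested, 1 rose and 2 fell. Frzb, an SFRP-like antagonist, was at 6.13 ± 2.01 FPKM (SD, WT, n = 7) and 15.4 ± 7.07 FPKM (SD, CKO, n = 5), with a log2 difference of 1.16 and an SE of 0.25 (adjusted p = 0.00678, limma; 0.00584 to 0.0705 over the alternatives). Apcdd1, a membrane-bound WNT inhibitor, was at 10.8 ± 3.70 FPKM and 5.58 ± 1.36 FPKM, and Gpc4, a glypican, at 53.9 ± 6.78 FPKM and 39.1 ± 12.3 FPKM (adjusted p = 0.0129 and 0.047, limma). The call for Gpc4 held in 3 of the 12 fits with a single library left out (WT replicate 3, the unnumbered WT library or CKO replicate 4), and that for Apcdd1 was lost without CKO replicates 2 and 3. Of 17 non-canonical receptors and planar polarity genes, 15 were tested, 0 rose and 1 fell, which was Celsr1, an adhesion receptor of planar polarity, at 2.69 ± 0.388 FPKM and 1.46 ± 0.454 FPKM (adjusted p = 0.0179, limma), a call lost without CKO replicate 5.

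Of 18 genes reported elsewhere as WNT targets and present in the table, 16 were tested, 3 rose and 1 fell. Cd44, a hyaluronan receptor, was at 10.0 ± 3.51 FPKM (SD, WT, n = 7) and 20.2 ± 5.79 FPKM (SD, CKO, n = 5) (log2 difference 0.96). With CKO replicates 1 and 5 left out the log2 difference was 0.74 and did not pass (adjusted p = 0.0607, limma). Bambi, a pseudoreceptor of TGF-beta signalling, was at 6.56 ± 0.90 FPKM and 10.2 ± 1.58 FPKM, and Twist1, a mesenchymal factor, at 25.4 ± 5.50 FPKM and 35.8 ± 6.48 FPKM. Irs1, an insulin receptor substrate, fell from 17.3 ± 2.93 FPKM to 11.9 ± 2.75 FPKM. The adjusted p of these 4 lay between 0.00677 and 0.0468 (limma), and leaving out a single library ended the call for Twist1 in 9 of 12 fits (all but WT replicates 1 and 3 and the unnumbered WT library). For Irs1 it did so in 5 of 12 (WT replicate 1 and CKO replicates 1, 3, 4 and 5). Myc, Ccnd1, Sp5, Nkd1 and Nkd2, which are used as readouts of canonical signalling, did not pass.

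In the authors' deposited table, 6 of the 58 genes were higher and 6 lower at q under 0.05. Of the 8 genes called here, 6 were called in the authors' deposited table in the same direction, and the other 2, Rspo2 and Lgr6, carry a p of 1 there, as do 24 of the 58. Called in the authors' deposited table alone were Wnt10a and Sfrp2, higher, and Fzd3, Fzd4, Wnt2b and Znrf3, lower. Among all 24255 genes, the authors' deposited table calls 4.44% higher and 3.64% lower. These shares take in genes below the filter used here, which 40 of the 58 WNT genes and 13168 of all genes passed. The WNT counts and these shares are therefore not matched for level.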

How the data were processed

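Per the labels' protocols, mRNA was isolated from ovarian total RNA with poly(A) beads and made into 12 libraries (7 WT, 5 CKO). The submitters' processing notes name mm10, TopHat2 2.0.13, Cufflinks 2.2.1 and Cuffdiff. The deposited table gives FPKM per gene with the authors' log2 fold changes, p-values and q-values between genotypes. Neither the annotation nor strand use is stated. In 99.9% of 12488 genes the deposited log2 fold change matched log2 of CKO over WT means to 0.01. A single WT column name is the title of a WT sample and also the description of a different WT sample, and it is called the unnumbered WT library. The other columns were matched by description, and by that rule it would be WT replicate 5. No label ties libraries to separate animals, and p-values reflect the variation among these libraries, which may be technical.

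Values were analysed as log2(FPKM + 1). The filter kept 13168 genes that reached 1 FPKM in 5 or more libraries, fitted with limma 3.58.1 in R 4.3.3 (trended empirical Bayes, genotype as the term, two-sided, Benjamini-Hochberg, threshold 0.05) and checked on simulated data. Differences on this scale understate those of low genes. No 2 libraries were duplicates (highest correlation 0.971). Positions come from GENCODE M21 (mm10).

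The WNT genes, lists and alternatives were chosen with earlier results of these data known. For each gene called and for the 6 most abundant uncalled genes, CKO values are given per library and WT values as range and median. Up to 4 called genes are named for each of 5 other pathway lists. Other genes singled out were chosen after their values were seen. Alternatives covered the pseudocount, filter, scaling, sample weights, an exact Wilcoxon test, left-out libraries and a replicate block. The fit of the 8 block libraries without the block was added after seeing the data.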

Additional observations from a re-analysis of the deposited data

Results flagged for a closer look

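In 6 cases a library stood apart from the others of its genotype, by a gap larger than Dixon's 95% critical value on the log2(FPKM + 1) scale. Among 80 groups examined, chance would give about 1 in 20. The unnumbered WT library was highest for Axin2, at 16.3 FPKM against 4.79 to 8.01 FPKM in the other WT libraries, for Dkk3, at 57.0 FPKM against 24.9 to 32.7 FPKM, for Fzd1, at 75.4 FPKM against 20.9 to 35.1 FPKM, and for Fzd7, at 26.1 FPKM against 11.8 to 15.4 FPKM. It was lowest for Sfrp4, at 71.35 FPKM against 1246 to 5095 FPKM. CKO replicate 3 was lowest for Fzd2, at 9.505 FPKM against 13.3 to 15.1 FPKM in the other CKO libraries.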

How the results depend on the processing

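Lgr4, Rspo1 and Rspo3 were called in the same direction in all 24 alternatives, and the 8 genes called kept their sign in all of them. The number of WNT genes called was 3 to 7 higher and 3 to 6 lower in the fits that leave out 1 library, with the 7 from leaving out the unnumbered WT library, and the number of all genes called was 1635 to 2284 there, against 2144. The exact Wilcoxon test called 2 WNT genes higher and 1425 genes in all. Without CKO replicates 1 and 5, 2 WNT genes were called lower and 1341 genes in all. Same-numbered WT and CKO libraries did not deviate together (correlations from -0.071 to 0.09 over 4 pairs). The other pairs of a WT and a CKO library had correlations from -0.227 to 0.17. These values show no pairing by number, and they cannot exclude it. A replicate block over these 8 libraries called 6 WNT genes higher, 2 lower and 1266 genes in all, against 6, 3 and 1496 without the block. With the block the adjusted p was 0.0724 for Lrp5, 0.0551 for Lgr6, 0.0546 for Tnks, 0.0705 for Frzb and 0.0552 for Bambi. Without the block, in the same 8 libraries, it was 0.0633 for Frzb and 0.0543 for Lgr6, and the other 3 passed. Gsk3b, Gpc4, Celsr1, Irs1 and Twist1 passed in neither. Log2 differences near 0 changed sign without being called. In the fits that leave out 1 library the range was -0.0872 to 0.0188 for Ctnnb1, -0.03 to 0.18 for Dkk3, -0.15 to 0.0707 for Fzd5, -0.24 to 0.052 for Fzd6, -0.0615 to 0.14 for Fzd7, -0.14 to 0.0821 for Lef1, -0.37 to 0.0272 for Lgr5, -0.0858 to 0.0855 for Lrp6, -0.17 to 0.12 for Tcf7l1 and -0.17 to 0.57 for Wnt10b. Without CKO replicates 2 and 3 it was -0.13 for Axin2, 0.0143 for Ctnnb1, -0.0094 for Fzd7, -0.11 for Lrp6, -0.64 for Wnt10b and -0.10 for Wnt6. Without CKO replicates 1 and 5 it was 0.024 for Ctnnb1, 0.24 for Fzd6, 0.10 for Lef1, 0.28 for Lgr5, 0.14 for Tcf7l1 and 0.0363 for Tcf7l2. With the replicate block, and in its 8 libraries without it, it was 0.0915 for Fzd5, 0.11 for Fzd6, 0.0441 for Lgr5, 0.19 for Tcf7l1 and 0.0502 for Tcf7l2. Sample weights gave 0.0222 for Ctnnb1, 0.0043 for Fzd5, 0.0406 for Lef1 and -0.0126 for Lrp6, and a pseudocount of 0.1 gave 0.0279 for Lef1. The cause of these changes was not tested.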
